A study of Mus musculus with 8 samples.

Results

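Across 8 ATAC-seq libraries of mouse amygdala neurons, 223 regions of chromosomes 1 to 19 carried a listed interval in every library. They were chosen from the measured values: the 53864 strongest intervals of each library by deposited p, the length of the shortest list, were merged where they overlapped by at least 1 bp, and the regions with an interval from all 8 libraries were kept. The merged set held 404918 autosomal regions, so the 223 were a very small part of it. Of the rest, 384156 had an interval in 1 library, 18868 in 2, 1250 in 3, 192 in 4, 83 in 5, 80 in 6 and 66 in 7. The counts fell with each further library up to 7 and rose again at 8. Membership and order within a list were fixed by the rule and are described here without a test. A test was made only between the groups of libraries described next, on their ranks.

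All groups were male C57BL/6J mice given an AAV with a guide RNA into the amygdala, with over 2 weeks for expression. They were then restrained in tubes for 7 days, conditioned to fear on 1 day and put through extinction on 3 days. The guide was directed at Rosa (sgRosa, the control, n = 4) or at Nr2f2, the gene of the orphan nuclear receptor COUP-TFII (sgNr2f2, n = 4). Neurons were enriched from papain-digested amygdala with a magnetic isolation kit. The labels name neither an unstressed group nor a virus-free group, name no selection of cells that took up the virus and do not name the source of the nuclease. All values are therefore from stressed, injected animals.

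ATAC-seq uses the transposase Tn5, which inserts adapters where DNA is not covered by nucleosomes, and fragments pile up at active promoters and enhancers. They also pile up wherever one stretch of the reference assembly stands for many near-identical copies in the genome, such as satellite repeats near centromeres, ribosomal RNA gene arrays and nuclear copies of mitochondrial DNA, because fragments from all copies are then placed on one stretch. The assembled sequence of mouse chromosomes begins beside the centromere. No genome sequence, repeat annotation or mitochondrial sequence was used here, so whether a region is satellite or mitochondrial in sequence was not tested.

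Sequence could be read where a RefSeq promoter window (GRCm38.p6, the assembly of mm10; 250 bases before to 50 bases after a start site) overlapped a shared region. Of 32851 such windows, 8 windows of 7 genes did. The window of LOC115490388, a predicted gene near the start of chromosome 6, lay within the shared region chr6:3182536-3184137. Words of 20 bases were compared between windows on either strand, leaving out words held by more than 50 windows. It is shown because it shared the most words with a single other window, 48 with that of Gm34267. Its words recurred in 4 windows in all, those of the predicted genes Gm34267, Gm33022, 4930433N12Rik and Gm31138. Words of 2 windows not printed recurred in more windows but with fewer words in any one, those of 3110070M22Rik in 26 (at most 5 words) and of Gm13822 in 47 (at most 23). Capitals mark the bases covered by shared words. In the first window these are words shared with any of the 4 others, 188 of 300 bases, with a longest stretch of 155. That stretch joins words shared with different windows and does not recur whole in any of them. The longest stretch was 39 bases in Gm34267, 37 in Gm33022, 33 in 4930433N12Rik and 39 in Gm31138.

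LOC115490388 (chr6:3182866-3183165, plus strand): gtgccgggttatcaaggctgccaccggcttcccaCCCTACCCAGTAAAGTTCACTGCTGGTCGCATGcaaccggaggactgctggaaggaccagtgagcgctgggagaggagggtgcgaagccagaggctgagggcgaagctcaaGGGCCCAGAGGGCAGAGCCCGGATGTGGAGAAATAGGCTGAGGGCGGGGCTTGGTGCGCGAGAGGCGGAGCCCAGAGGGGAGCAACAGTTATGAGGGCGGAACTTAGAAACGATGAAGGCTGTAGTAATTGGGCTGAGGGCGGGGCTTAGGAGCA

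Gm34267 (chr10:22058605-22058904, minus strand): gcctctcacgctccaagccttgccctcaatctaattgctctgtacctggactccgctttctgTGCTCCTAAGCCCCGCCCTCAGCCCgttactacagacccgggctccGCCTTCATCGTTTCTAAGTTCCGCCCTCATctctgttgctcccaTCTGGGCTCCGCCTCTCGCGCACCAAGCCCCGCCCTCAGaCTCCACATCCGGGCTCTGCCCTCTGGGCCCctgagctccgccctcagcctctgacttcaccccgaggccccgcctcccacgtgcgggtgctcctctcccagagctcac

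Gm33022 (chr14:19311640-19311939, minus strand): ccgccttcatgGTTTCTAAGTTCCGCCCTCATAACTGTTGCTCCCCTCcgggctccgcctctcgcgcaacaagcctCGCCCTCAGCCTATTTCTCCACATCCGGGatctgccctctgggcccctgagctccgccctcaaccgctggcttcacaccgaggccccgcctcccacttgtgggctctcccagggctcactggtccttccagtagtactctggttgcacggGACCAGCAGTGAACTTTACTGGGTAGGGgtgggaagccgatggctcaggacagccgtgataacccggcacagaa

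4930433N12Rik (chr9:3199764-3200063, minus strand): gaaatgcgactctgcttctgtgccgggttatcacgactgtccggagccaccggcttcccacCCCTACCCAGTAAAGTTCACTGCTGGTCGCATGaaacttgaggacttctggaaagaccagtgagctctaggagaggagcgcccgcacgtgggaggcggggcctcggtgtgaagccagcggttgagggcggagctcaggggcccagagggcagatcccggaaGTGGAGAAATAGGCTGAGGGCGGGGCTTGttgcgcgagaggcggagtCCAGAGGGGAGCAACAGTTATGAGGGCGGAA

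Gm31138 (chr9:3199644-3199943, plus strand): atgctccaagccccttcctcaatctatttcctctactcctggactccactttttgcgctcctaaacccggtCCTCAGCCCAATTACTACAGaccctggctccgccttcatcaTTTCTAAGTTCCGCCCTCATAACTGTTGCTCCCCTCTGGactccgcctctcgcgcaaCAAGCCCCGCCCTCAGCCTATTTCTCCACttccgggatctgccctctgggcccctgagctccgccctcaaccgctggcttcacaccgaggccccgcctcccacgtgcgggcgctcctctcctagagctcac

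The last 2 of these windows overlap on opposite strands of chromosome 9 and share their DNA. None of the 4 recurrences lay under a shared region, but each lay near one: 83335 bp away for Gm34267, 103761 bp for Gm33022, 58699 bp for 4930433N12Rik and 58819 bp for Gm31138. Of all promoter windows, 1.95% lay within 150 kb of a shared region, a distance chosen after these values were seen. The neighbours of Gm33022 are the 3 shared regions at chr14:19415700-19419713. The neighbour of the chromosome 9 pair is chr9:3258762-3259051, which lies outside the largest run described below and joins it only in a looser stretch.

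The second window shown is that of 4931408C20Rik, a protein-coding gene of chromosome 1 whose start lay under the shared region chr1:26686808-26688442. Capitals mark what it shares with 3 other windows, of which Gm597, on the same chromosome, shared 42 words with a longest stretch of 55 bases.

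4931408C20Rik (chr1:26687411-26687710, minus strand): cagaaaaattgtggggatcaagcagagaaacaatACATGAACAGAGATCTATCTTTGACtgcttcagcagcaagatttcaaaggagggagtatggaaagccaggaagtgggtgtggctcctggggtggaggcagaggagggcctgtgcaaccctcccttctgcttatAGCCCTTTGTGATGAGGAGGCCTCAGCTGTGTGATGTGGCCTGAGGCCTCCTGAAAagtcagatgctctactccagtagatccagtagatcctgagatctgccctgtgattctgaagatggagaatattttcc

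Gm597 (chr1:28780203-28780502, minus strand): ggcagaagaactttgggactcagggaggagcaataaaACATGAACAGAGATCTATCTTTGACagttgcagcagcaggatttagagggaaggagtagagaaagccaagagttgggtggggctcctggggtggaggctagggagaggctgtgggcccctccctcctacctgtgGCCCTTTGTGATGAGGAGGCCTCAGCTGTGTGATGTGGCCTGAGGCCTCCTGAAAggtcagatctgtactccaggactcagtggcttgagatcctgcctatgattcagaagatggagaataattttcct

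Gm597 lies 2091761 bp from the nearest shared region, so its window was a related sequence with no interval in all 8 libraries. The third window is that of Gm4981, picked after its values were seen, within a cluster at the double homeobox gene Duxf3. The region chr10:58236692-58237077 covered 219 of its 300 bases, in capitals. Windows of 3110070M22Rik (300 bases) and Tmem267 (241) were covered over more and are not printed.

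Gm4981 (chr10:58236611-58236910, minus strand): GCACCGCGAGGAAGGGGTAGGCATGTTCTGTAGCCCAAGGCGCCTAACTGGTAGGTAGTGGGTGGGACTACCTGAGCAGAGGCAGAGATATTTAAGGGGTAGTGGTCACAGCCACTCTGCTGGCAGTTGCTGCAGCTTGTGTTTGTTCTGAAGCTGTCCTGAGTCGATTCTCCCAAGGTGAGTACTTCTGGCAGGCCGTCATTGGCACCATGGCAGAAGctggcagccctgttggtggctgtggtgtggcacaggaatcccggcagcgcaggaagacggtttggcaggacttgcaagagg

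One annotated miRNA lay inside a shared region. The mature miR-6236 sits at chr9:110281353-110281371 on the plus strand, 37 bp from the median summit of chr9:110281199-110281438, and is printed with its seed, bases 2 to 8, in capitals.

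mmu-miR-6236: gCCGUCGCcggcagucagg

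Its DNA letters were in 0 of the 32851 promoter windows. Fragments at this region do not measure the miRNA. The region's pileup, the height that the peak caller counted over the summit, was 121, 74, 97 and 68 in sgRosa libraries 1 to 4. It was 92, 76, 117 and 83 in sgNr2f2 libraries 1 to 4, and the groups overlapped. Whether a pileup counts whole fragments or extended read ends is not given in the sources used here.

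Near-copies were also counted among promoter windows close to the shared regions. Of 58 windows within 10 kb of a shared region, 1 (1.72%) shared at least 100 of its 281 words with another window, against 1847 of 32851 windows (5.62%). At least 1 word was shared by 29.3% and 30.6%. No test was made, and the words left out, those held by more than 50 windows, are the most repeated ones. Most shared regions had no promoter window over them, so these counts say nothing of the repeat content of the regions themselves.

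The shared regions were few but headed every list. In each library they held between 256 and 269 intervals, 0.475% to 0.499% of those kept. Of the autosomal intervals among the 300 strongest of a library, between 60.6% and 66.7% lay in shared regions, and of those among the 100 strongest, between 93 and 97 of 96 to 98 did. The median rank of the 223 regions was between 121 and 128 in every library, where rank 1 is the smallest deposited p. Between 210 and 221 of them had a deposited q under 0.05 in a given library, and 187 had one in all 8. Read depth per library is unknown, but pileups could be solved from the deposited fold and p as whole numbers. They are not scaled between libraries. The most frequent local background was 4.2, 3.18, 4.28 and 2.3 in sgRosa libraries 1 to 4. It was 4.02, 3.34, 4.22 and 3.54 in sgNr2f2 libraries 1 to 4. The median pileup of the shared regions was 47, 39, 49 and 34 in sgRosa libraries 1 to 4 and 48, 40, 55 and 42 in sgNr2f2 libraries 1 to 4, against 10 to 13 for all kept intervals. Their median fold enrichment over local background, as deposited by the authors, was 5.50 to 6.25 against 2.65 to 3.03.

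The strongest region, chr9:35305146-35305661, inside the predicted gene Gm33838, ranked 1 in all 8 libraries. Its pileup was 4116, 3358, 3833 and 3243 in sgRosa and 3472, 3419, 3803 and 3632 in sgNr2f2, with every library's summit within 5 bp. Rank 2 in every library was chr2:98666179-98667378, which lay 35221 bp from the nearest gene and had pileups of 3988 to 4790. Rank 3 in every library was chr9:24541946-24542229, 14818 bp from Dpy19l2, with pileups of 716 to 1032. The regions at ranks 2 and 3 differed in background and fold. At the chromosome 2 region the local background was itself high, 399 to 508 in the units of the pileup, and the fold was 9.003 to 9.97. At chr9:24541946-24542229 the background was 12.8 to 19.02 and the fold 49.2 to 54.0, the highest median fold among all 223 regions.

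The next of the 12 regions with the highest mean rank were chr2:98662172-98663030, 3148 bp before the rank 2 region, and a region of 364 bp at chr6:103648999-103649362 in Chl1, a gene for an L1-type adhesion molecule of axons. The Chl1 region ranked 5 to 7 in every library, with pileups of 618, 533, 584 and 434 in sgRosa and 573, 531, 576 and 556 in sgNr2f2. Of these 12 regions, 5 lay inside annotated genes: those in Gm33838 and Chl1, one in Aida (chr1:183299064-183299662, pileup 380 to 648), one in Kctd16, which encodes an auxiliary subunit of GABA-B receptors (chr18:40307976-40308443, 294 to 522), and one in Cdk5rap2, which encodes a centrosomal protein (chr4:70378059-70378324, 241 to 387). The other 7 lay outside genes, at chr2:98666179, chr9:24541946, chr2:98662172, chr15:75085459-75087110, chr9:2999936-3001142, chr14:19417223-19419713 and chr18:3005200-3006470. Lying inside a gene is a matter of coordinates; exons, introns and untranslated regions were not analysed here.

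**Figure D1:**
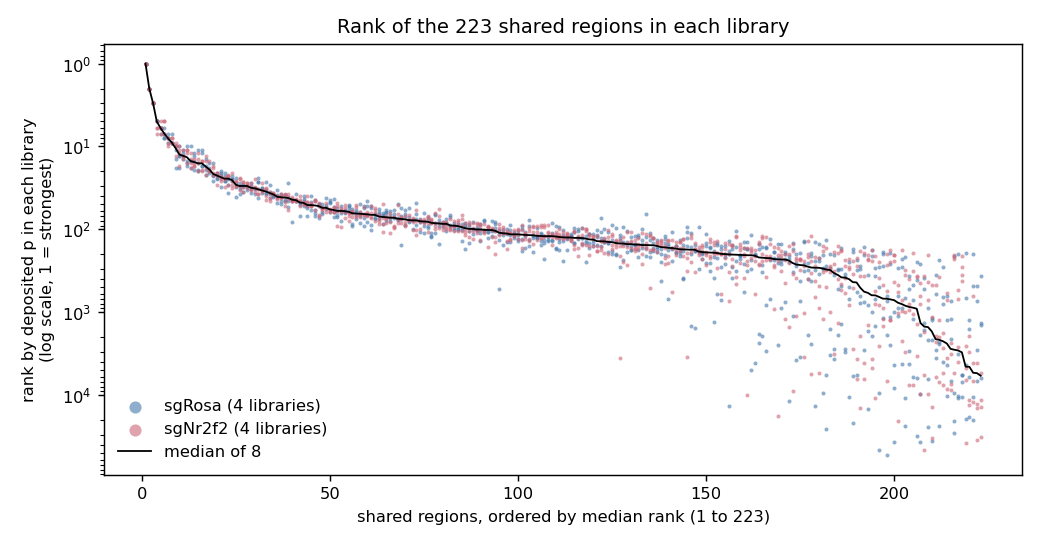
Rank of each of the 223 shared regions in each library (vertical log axis, 1 is the strongest; blue points sgRosa, red points sgNr2f2, 4 libraries each; black line, median of 8), with regions ordered by median rank on the horizontal axis. The 8 libraries lie close together to about the 150th region and spread over several orders of magnitude beyond it; 66 regions had a weakest rank beyond 1000.

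Ranks were steady for most of the set and very uneven at its lower end. The weakest of a region's 8 ranks was within 300 for 141 regions (63.2%), beyond 1000 for 66 (29.6%) and beyond 10000 for 31. Spearman's rho over the 223 regions was 0.892 to 0.932 for the 6 pairs of sgRosa libraries, 0.925 to 0.943 for the 6 pairs of sgNr2f2 libraries and 0.885 to 0.935 for the 16 pairs across groups. These are descriptions across regions that were chosen for being strong in every library, and the lists share the same assembly. The 5 steadiest regions were chr9:35305146, chr2:98666179, chr9:24541946, Chl1 and chr2:98662172, all among the 12 strongest.

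The region with the largest SD of rank percentile (percentile among the 223, 100 being the strongest) was chr16:28715463-28715625 in Fgf12, a fibroblast growth factor homologue that binds voltage-gated sodium channels. Its ranks were 107, 159, 128 and 94 in sgRosa and 319, 3497, 192 and 222 in sgNr2f2, an SD of 19.7 points over the 8 libraries. The next were chr19:61223804-61224208 in Csf2ra, the receptor subunit for granulocyte-macrophage colony-stimulating factor (SD 17.7, ranks 106 to 456), chr5:136932957-136933358 in 4933404O12Rik (16.6), chr18:3004773-3005115 (16.6) and chr5:134378805-134379235 in Gtf2ird1, which encodes a transcription factor (15.7). In chr5:136932957 and chr18:3004773 a single library, sgRosa 1, was far below the rest, at rank 526 and 1452 where the others ranked 87 to 133 and 112 to 249.

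Close to the limit of the rule, membership turned on 1 library. The 5 members nearest the end of the list were chr10:113213522-113214452, with a weakest rank of 53240 in sgRosa 4, chr13:119617011-119617606 (46261 in sgRosa 3), chr11:3187693-3188354 in Sfi1 (46245 in sgNr2f2 4), chr4:146167272-146167632 in Zfp600 (38369 in sgNr2f2 2) and chr17:23330226-23331016 (37243 in sgRosa 4). Their second weakest ranks were 5733 to 19572. Just outside were chr3:99981001-99981433 in Spag17, which missed by a rank of 54228 in sgNr2f2 1, chr17:13540392-13542062 in 2700054A10Rik (55032), chr4:3226321-3227115 (55035), chr16:3241038-3241771 (55288) and chr4:147518793-147519974 (56043). Of the 66 regions found in 7 libraries, 11 had an interval in the full list of the missing library and 55 had none. The missing library was sgRosa 1 to 4 for 8, 12, 8 and 15 of them and sgNr2f2 1 to 4 for 8, 6, 5 and 4.

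Many shared regions lay close to another one. With gaps of up to 10 kb joined, 97 regions (43.5%) lay in 27 runs of 2 or more, and 54 (24.2%) lay in 7 runs of 4 or more. By the same gap 40.6% of the 355 regions found in 4 to 6 libraries lay in runs of their own class, a share close to that of the shared regions. It was 22.7% for the 66 found in 7, 19.2% for those found in 2 or 3 and 96.2% for those found in 1, and it moves with how many regions a class holds. The first assembled megabase of a chromosome held 59 regions, 26.5%. It held 12.1% of regions found in 7 libraries, 13.5% of those found in 4 to 6 and 0.628% of those found in 1. The last megabase held 24 (10.8%), against 4.55%, 2.54% and 0.706%. Widening the window at the start to 5 Mb added only 2 regions. By chromosome, 4 carried 30 regions, 9 carried 29 and 11 carried 22, while 15 carried 2. Neighbouring regions are not independent, and no test was made of these shares.

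The largest run held 20 regions within 38.35 kb at the start of chromosome 9, chr9:2999936-3038289. Regions covered 23.1% of it, with gaps of 25 to 7363 bp. All 20 were strong, with median ranks of 8 to 148.5. The leading region, chr9:2999936-3001142, ranked 7 to 10, with pileups of 769, 547, 771 and 619 in sgRosa and 611, 629, 767 and 676 in sgNr2f2. The nearest gene of the table, Mir101c, lay beyond the end of the run. A further region, chr9:3258762-3259051, brought the stretch to 21 within 259 kb.

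Further runs held no protein-coding gene, some of them far from a chromosome end. In the last megabase of chromosome 2, 7 regions lay within 14.19 kb at chr2:181917222-181931408, led by a region in the predicted gene Gm40034 with ranks of 21 to 29 and pileups of 229 to 387. Smaller groups lay in the first assembled megabase at chr11:3100165-3104275 (3 regions) and chr18:3004773-3006470 (2), and within chromosomes at chr14:19415700-19419713 (3 regions that covered 91.3% of 4.01 kb) and chr2:98662172-98667378 (2). Looser stretches, with gaps of up to 1 Mb, lay at chr16:3114492-3351716 (7 regions), chr4:3049956-3230157 (6) and chr17:13305898-13655337 (4).

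**Figure D2:**
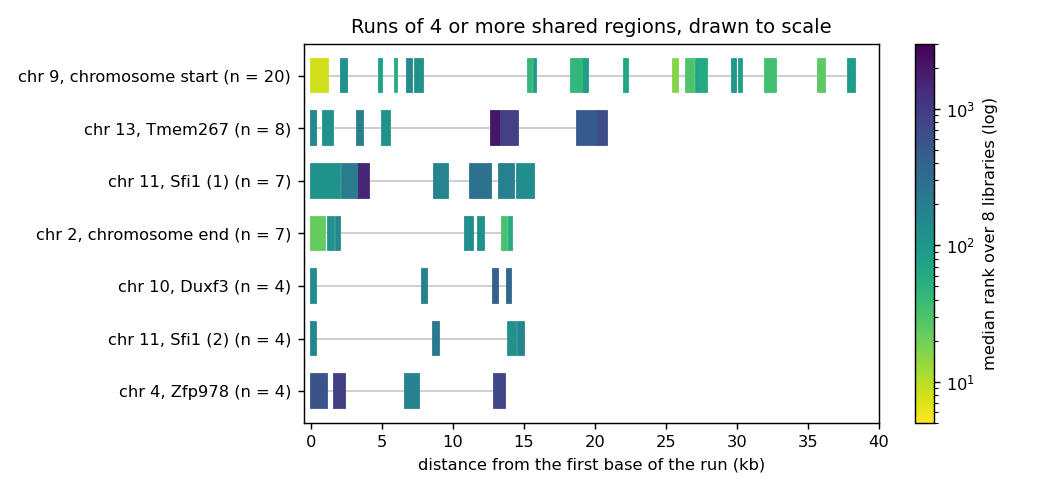
The 7 runs of 4 or more shared regions, each drawn from its first base (horizontal axis, kb), with regions as boxes to scale coloured by median rank over the 8 libraries (log colour scale, yellow is the strongest). The chromosome 9 run holds 20 of the 54 regions and its leading region has a median rank of 8, while single regions of the Tmem267 and Sfi1 runs have median ranks of 2114 and 1494.5.

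The other runs of 4 or more lay in or beside protein-coding genes. Sfi1, which encodes a centrosomal centrin-binding protein, held 12 shared regions within the first assembled megabase of chromosome 11, the most of any gene. They formed a run of 4 (chr11:3158403-3173381) and a run of 7 (chr11:3184296-3200025), with 1 region before them. The 2 runs differed in their background: at the run of 7 the local background was 21.19 to 37.79 times the library's genome-wide background, and at the run of 4 it was 1.001 to 1.011 times. At the leading region of the run of 7, chr11:3184296-3186345, pileups were 208, 171, 225 and 124 in sgRosa and 211, 178, 204 and 210 in sgNr2f2. At the leading region of the run of 4, chr11:3172316-3172845, ranks were 83 to 155.

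Tmem267, which encodes a transmembrane protein, held 7 regions, and 6 of these with 2 further regions formed a run of 8 at chr13:119596781-119617606. The leading region of that run, chr13:119597630-119598305, ranked 89 to 143. Median ranks in the run were 115 to 2114, so strong and weak regions stood side by side within 20.83 kb. The gene's other region, chr13:119488282-119489354, covered its start site and ranked 126 to 184.

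Zfp978, a zinc finger gene of chromosome 4, held 5 regions, 4 of them in a run at chr4:147336405-147350048. This run was among the least steady: its leading region, chr4:147343005-147343987, ranked 145 to 1544, and the other 3 had weakest ranks of 14923, 31613 and 20644. It belonged to a stretch of 16 regions over 2148 kb, chr4:145439576-147587423, with regions in Gm42346 (2), Zfp600, Zfp992 and Zfp993. The run at chr10:58223867-58237947 had 4 regions, 1 in the predicted gene LOC100504180, 1 in Duxf3 and 2 upstream of Gm4981. Duxf3 is a member of the double homeobox family found as a repeated array in mouse. The leading region of this run, chr10:58223867-58224211, had pileups of 39, 23, 76 and 33 in sgRosa and 35, 28, 33 and 30 in sgNr2f2. There sgRosa 3 stood well above the other libraries.

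Besides Gm42346, 2 more coding genes held 2 regions: Dock2, which encodes a guanine nucleotide exchange factor of haematopoietic cells (chr11:34544223-34545042, pileup 31 to 61, and chr11:34681611-34682657, 40 to 93), and Muc3, an intestinal mucin gene (chr5:137152154-137152548, 23 to 48, and chr5:137152678-137153025, 12 to 29). In all, 77 shared regions (34.5%) lay inside 62 protein-coding genes, 56 of which held 1 region. Overlapping genes are counted separately: the Ugt1a genes hold the same 1 region, as do Cmss1 and Filip1l. The share was 48.5% for regions found in 7 libraries, 37.7% for those found in 4 to 6 and 44.3% for those found in 1. A further 92 (41.3%) lay over 5 kb from any gene of the table, against 30.3%, 36.3% and 37.6%.

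Within 5 kb of the shared regions lay 134 genes, among them 6 zinc finger genes with the symbol Zfp (4.48%, against 0.846% of the 49550 genes of the table) and 8 vomeronasal receptor genes and pseudogenes (5.97% against 1.26%), which encode pheromone receptors. The vomeronasal members included Vmn2r114 in a stretch of 6 regions at chr17:23293522-23520248. No olfactory receptor gene, 2.88% of the table, and no spliceosomal RNA gene was near a shared region. Predicted genes were 53 of the 134 near (39.6%) and 24754 of the 49550 in the table. These genes stand in clusters and were not tested as independent members.

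The only annotated ribosomal RNA locus was Rn18s-rs5 on chromosome 17, named for its relation to 18S ribosomal RNA, with 2 shared regions. The first, chr17:39843034-39846731, was the widest of all 223 at 3698 bp. Its pileup was 605, 480, 594 and 328 in sgRosa and 627, 386, 562 and 529 in sgNr2f2, over a local background of 240, 192, 222 and 137 and of 260, 160, 238 and 192. The fold was therefore low, 2.35 to 2.75, and the place of the summit varied over 1826 bp between libraries. The second, chr17:39847509-39848814, also overlapped AY036118 and had pileups of 308 to 556.

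Within 1 kb of an end of a protein-coding gene lay 12 shared regions (5.38%). The share was 7.58% of regions found in 7 libraries, 11.3% in 4 to 6, 5.35% in 2 or 3 and 3.92% in 1. Within 1 kb of a coding start site, chromosome 18 apart, lay 7 (3.14%), against 4.55%, 6.76%, 3.3% and 1.97%. The 12 regions at gene ends belonged to 7 genes with 1 region each, to Gm4981 with 2 and to Tmem267 with 3. Among the steady ones were Lars2, which encodes the mitochondrial leucyl-tRNA synthetase (chr9:123461727-123462248, 427 bp from an end, ranks 40 to 52), Oasl1, of the interferon-induced oligoadenylate synthetase-like family (chr5:114922383-114922654, ranks 83 to 175), Slc30a4, a zinc transporter gene (chr2:122681207-122682444, ranks 98 to 191), Elobl (chr11:88967784-88969563, ranks 134 to 208) and 4931408C20Rik (ranks 143 to 203). The Lars2 region had pileups of 131, 113, 118 and 87 in sgRosa and 113, 87, 137 and 107 in sgNr2f2, and the groups overlapped. The least steady was a region inside Ugt1a1, a glucuronosyltransferase gene, 338 bp from its start site (chr1:88212297-88213637), with ranks of 366 to 32186. It also lay inside other, overlapping Ugt1a genes. The others were 2 regions upstream of Gm4981 and 1 near Zfp985 (chr4:147586137-147587423, ranks 190 to 1455). Those at Gm4981 lay 32 bp (chr10:58236692-58237077) and 993 bp (chr10:58237653-58237947) from its start site.

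The labelled cell type could not be read from these regions. Of 40 marker genes of neurons, excitatory and inhibitory neurons, astrocytes, oligodendrocytes, microglia and endothelial cells, 0 had a shared region within 5 kb. Only 134 of all 49550 genes of the table had one that near, so 0 of 40 says nothing of the cell type. A start site was known for 6 of 10 neuron markers and for 3 or 4 of 5 markers in each other list. These carried 0 to 2 intervals per list and library, and none carried one in all 8. The rate over all start sites is not given here.

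The local background divided the shared regions. It is the larger of the genome-wide and nearby expectation that the peak caller sets against the pileup, and it was solved from each interval's fold and p. As a ratio to the library's genome-wide background it had a median of 6.06 over the 54 regions in runs of 4 or more, 2.01 over the 43 in runs of 2 or 3 and 1.06 over the 126 alone. The ratio was over 1.5 in all 8 libraries for 92 regions (41.3%), which were 44 of the 54, 22 of the 43 and 26 of the 126, and in no library for 98. A region's own signal can raise its nearby expectation, and so can that of a neighbour within 10 kb. A high ratio therefore need not mean a raised surrounding, as at the lone regions in Gm33838 (28.48) and Chl1 (3.813). What part either has in the ratio was not tested.

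**Figure D3:**
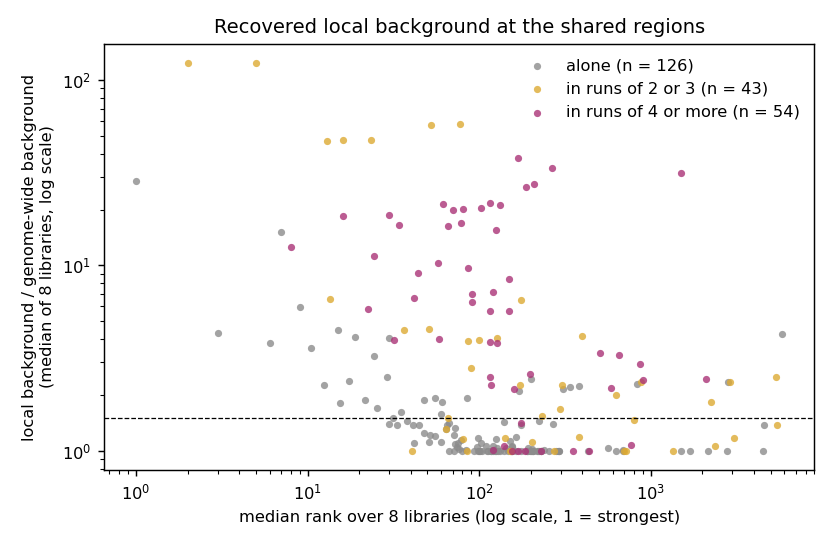
Ratio of local to genome-wide background (vertical log axis, median of 8 libraries) against median rank (horizontal log axis, 1 is the strongest) for each shared region, coloured by whether it stands alone or in a run; the dashed line is at 1.5. The pair at chr2:98662172-98667378 tops the plot at 122.9 and 122.7, and most single regions lie near 1.

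A ratio over 10 was found at 29 regions: 20 in runs of 4 or more (13 at the start of chromosome 9 and the 7 of the second Sfi1 run), 7 in smaller runs (2 at chr2:98662172-98667378, 3 at chr14:19415700-19419713 and 2 at Rn18s-rs5) and 2 alone (Gm33838 and chr15:75085459). The runs at Duxf3 (1.0 to 1.061) and the run of 4 in Sfi1 had a local background near the genome-wide one. The fold is taken over this same background, so a higher background lowers it by definition. Its median was 4.03 in runs of 4 or more and 8.09 for regions alone, where the median pileups were 112 and 38.75.

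Summits fell in nearly the same place in many shared regions. The rule used overlap of whole intervals and not the summit. The range of the strongest summit over the 8 libraries had a median of 26 bp and was at most 10 bp in 53 regions (23.8%). In regions found in 7 libraries the median range was 72.5 bp and 10.6% were within 10 bp, and in those found in 4 to 6 libraries 141 bp and 4.23%, although fewer libraries leave less room for spread. Stronger intervals also place a summit more exactly, and the median pileups were 42.5, 21.5 and 15.5 in these classes, whose part in the ranges was not tested. At the other extreme 77 shared regions had a range over 100 bp, 23 of them among the 43 in runs of 2 or 3.

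**Figure D4:**
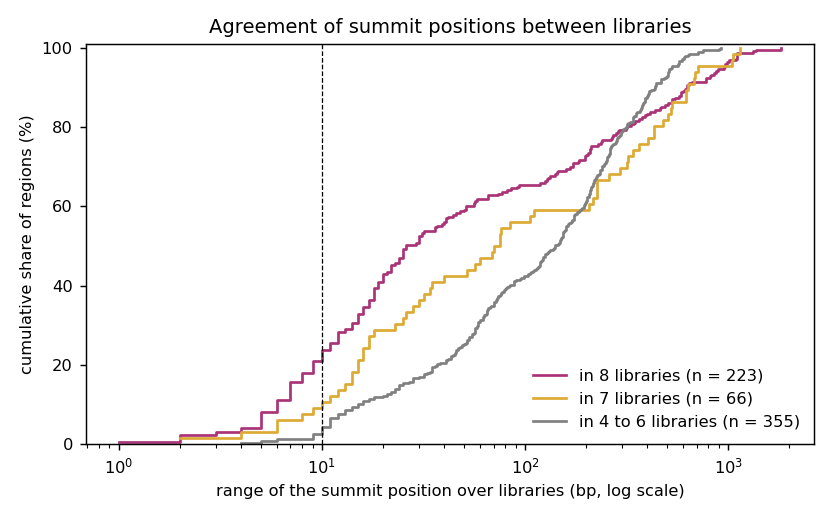
Cumulative share of regions (vertical axis, %) by the range of summit positions over the libraries that detected them (horizontal log axis, bp), for regions in all 8 libraries, in 7 and in 4 to 6; the dashed line is at 10 bp. The curve of the 223 shared regions lies highest over most of the range, with 23.8% within 10 bp against 10.6% and 4.23%, and crosses that of the 4-to-6 class at about 300 bp.

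Each library gave exactly 1 interval in 158 regions (70.9%). In 5 regions the start and end were the same base in all 8 libraries, and in 8 both agreed within 2 bp. These belonged mostly to 16 narrow regions, picked out after their values were seen, in which the median interval was at most 170 bp wide, the lists' narrowest interval being 150 bp. They included regions in Rab30, Nfib, Ankar, Dcc, Iftap, Fgf12, Cys1 and Atp2b2. At chr7:92753207-92753366 in Rab30, which encodes a small GTPase, pileups were 43, 39, 31 and 20 in sgRosa and 45, 35, 48 and 37 in sgNr2f2, with summits within 4 bp. At chr4:82326978-82327139 in Nfib, which encodes a nuclear factor I transcription factor, they were 41, 22, 27 and 57 and 33, 26, 49 and 25, with summits within 5 bp. The groups overlapped in both, and sgRosa 4 was the lowest library in the first and the highest in the second. Of the 16 narrow regions, 15 had a local background over 1.5 times the genome-wide one in no library.

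The guides were compared over the 8 libraries, since the rule had used no group label. The rule had, however, used the same deposited p and kept only regions with an interval in every library. A region absent from the lists of either group could not be among the 223. The counts below therefore do not cover regions gained or lost with a guide. Ranks among the 223 regions were turned into normal scores and tested with limma. At an adjusted p under 0.05, 0 regions were higher and 0 lower in sgNr2f2 (percent called 0.0). At an unadjusted p under 0.05 there were 14 regions (6.28% of 223), 5 higher (2.24%) and 9 lower (4.04%). Percentiles among the 223 did not overlap between the groups in 7 regions (3.14%), 3 higher (1.35%) and 4 lower (1.79%). A rank change is relative to the other shared regions and is not a change in the number of fragments.

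The smallest p belonged to the weaker Muc3 region, chr5:137152678-137153025. Its ranks in the whole lists were 5684, 6909, 5730 and 10463 in sgRosa and 361, 287, 211 and 423 in sgNr2f2, and its percentiles were 3.60 ± 1.65 and 19.8 ± 4.46 (SD, n = 4 each). The sgNr2f2 libraries were all above the sgRosa libraries, by 0.95 ± 0.21 (SE) normal-score units, with a limma adjusted p of 0.3132. Over the 15 alternatives in which it was tested, the adjusted p was 0.0209 to 0.61, and it passed the threshold without a trend in the variance (0.0226) and on log2 ranks (0.0209). Pileups behind these ranks were small, 16, 13, 17 and 12 in sgRosa and 21, 19, 29 and 23 in sgNr2f2. The neighbouring Muc3 region, 129 bp before it, had overlapping ranks of 108 to 190 and 103 to 196.

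In chr17:23328882-23330063 the sgNr2f2 libraries also all ranked higher, at 241, 204, 438 and 206 against 8210, 4322, 996 and 37241 in sgRosa, a difference of 1.14 ± 0.29 (SE; limma adjusted p = 0.3132, 0.131 to 0.681 over alternatives). In the Fgf12 region all sgNr2f2 libraries ranked lower (-0.95 ± 0.25, adjusted p = 0.3132, 0.131 to 0.754), with the ranks given above. In chr4:147586137-147587423 near Zfp985 they were also all lower in percentile among the 223, though not in whole-list rank, where 190, 279, 196 and 1185 in sgRosa met 1455, 903, 471 and 1194 in sgNr2f2 (-0.56 ± 0.17, adjusted p = 0.4471, 0.0667 to 0.867). The fifth, chr2:98662172-98663030, ranked 5 in every sgRosa library and 7, 6, 6 and 5 in sgNr2f2, a difference of -0.10 ± 0.03 (adjusted p = 0.4471). It reached 0.0261 without sgNr2f2 4, and was 0.0261 to 0.995 over alternatives. None of the 5 passed the adjusted threshold when all 8 libraries were fitted with a trend on normal scores.

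**Figure D5:**
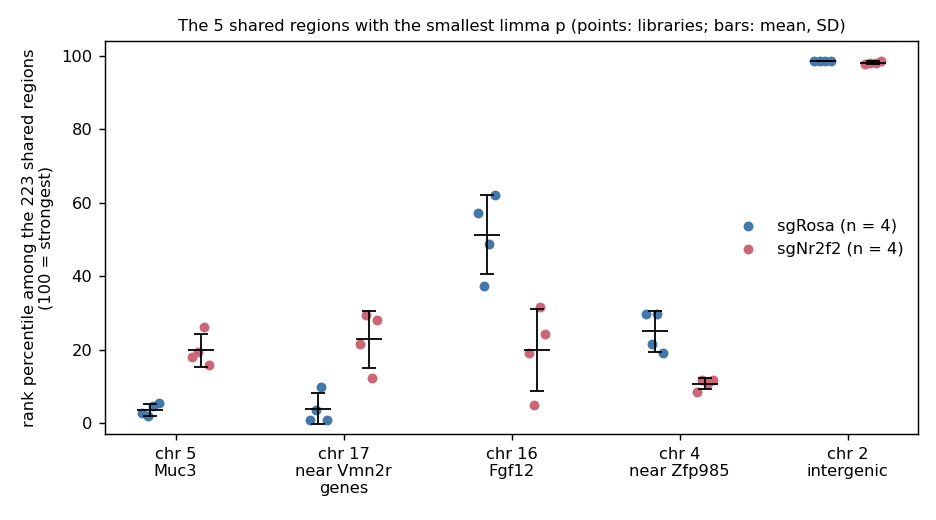
Rank percentile among the 223 shared regions (vertical axis, 100 is the strongest) for the 5 regions with the smallest limma p, with 1 point per library (blue sgRosa, red sgNr2f2, n = 4 each) and bars for the mean and SD. The groups do not overlap in the first 4 regions, and in the fifth 1 sgNr2f2 library equals the sgRosa libraries.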

How the data were processed

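The data are ATAC-seq peak lists in mm10 coordinates, 1 per library, for 4 sgRosa and 4 sgNr2f2 mice, grouped by sample title, and each library was taken as 1 animal because the labels speak of separate mice. If libraries shared animals, p-values would measure technical spread. The submitters' processing notes list MACS2 2.2.9.1 among other tools, HOMER 4.10, DiffBind 3.10.0, Picard, MultiQC 1.11, FastQC 0.11.9 and fastp 0.23.2, with no order. The aligner, the handling of fragments that map to several places or are duplicates, the Tn5 shift and the options of the peak caller are not given in the sources used here, and each of these affects repeated sequence. Each deposited line holds the authors' score, fold over background (a ratio), −log10 p, −log10 q and summit offset. The score was not used. The lists reach down to a −log10 p of 2.0.

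Lines of 1 interval were collapsed to the strongest (3499 removed), each library was limited to its strongest 53864 intervals, counting autosomes and X, and overlaps were merged. Chromosomes Y and M and unplaced contigs were left out. A region's rank in a library is that of its strongest interval. Whole pileups and local background were solved from fold, set to 1 more than the pileup over 1 more than the background, and from a Poisson tail for p, within a relative tolerance of 1e-04 (100.0% of intervals solved). Genome-wide background, the most frequent value, was 2.3 to 4.28 per library. Values of single regions cover counting error only. Gene positions, promoter windows and the miRNA came from RefSeq tables of GRCm38.p6 by coordinates (49550 genes, 21627 protein-coding, 17273 with a start site). The tables hold no exons or gene descriptions, so mitochondrial pseudogenes were not looked for by name.

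limma 3.58.1 under R 4.3.3 compared the groups, fitting a trend in the variance, and p-values were adjusted over all 223 regions by Benjamini and Hochberg. 3 regions with the same rank in every library had no variance, which limma offset from zero. Same-numbered libraries did not deviate together (correlations of 0.126, 0.0134, 0.0704 and -0.185), so no block was used. Calculations were tested on simulated data. Other steps ran in Python 3.11.15 with scipy 1.17.1, pandas 2.3.3, numpy 2.4.6 and, for plots, matplotlib 3.10.9.

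Named are the 12 highest regions by mean rank, runs of 4 or more, genes with 2 or more regions, gene ends within 1 kb, the 5 steadiest, most variable and smallest-p regions, the 5 on each side of the limit and listed gene families. Smaller runs, looser stretches, narrow regions and printed windows were picked after their values were seen, and some narrow regions are not reported here. Members and lists were chosen with earlier results of these data known. Alternatives changed the list length, order, overlap, run gap, gene set, limma settings and libraries.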

Additional observations from a re-analysis of the deposited data

Results flagged for a closer look

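In sgRosa 1, 221 of the 223 shared regions had a deposited q under 0.05, against 213 in each of the other sgRosa libraries, which sets it apart from its group. This was 1 of 30 sets of 4 libraries examined, and chance sets apart about 1 in 20. Because the other sgRosa libraries tie, any different count would have been set apart. The counts in sgNr2f2 libraries 1 to 4 were 220, 215, 221 and 210, so 221 was not particular to sgRosa 1. The X chromosome, outside the rule, held 7 further regions found in all 8 libraries. One of them, chrX:143482937-143483179, ranked 4 in every library, which fills the place between the autosomal regions at ranks 3 and 5, and 4 lay between 169980355 and 169994898. The mitochondrial genome, also outside the rule, had at least 4 intervals in each full list and at most 6.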

How the results depend on the processing

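With each library left out in turn the shared regions numbered 227 to 238. Leaving a library out asks for detection in fewer libraries, which favours a higher count, so this rise is no check of stability. Under the other alternatives they numbered 186 (only intervals with q under 0.05) to 238 (the full lists). Regions in runs ranged from 97 to 110 without a library and from 67 to 110 otherwise, and runs from 26 to 31 and from 18 to 29. The share inside protein-coding genes was 34.2% to 35.5% without a library, that over 5 kb from any gene 39.5% to 42.1%, and that in the first megabase 25.3% to 26.4%. Set against protein-coding genes only, 59.6% of regions lay over 5 kb from a gene, because fewer genes are counted. In limma, 1 region (the weaker Muc3 region) was called higher without a trend and 1, the same, on log2 ranks. Without a library the count higher stayed at 0 and the count lower was 0 to 1, the 1 (chr2:98662172) being called without sgNr2f2 4. The cause of these changes was not tested. The labels do not say that replicate numbers pair libraries. With the replicate number as a block, 0 regions were called higher and 0 lower. Depth is unknown, and the lowest pileup of a shared region in any library was 9.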
